A study of Homo sapiens with 6 samples.

Results

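The genes described here are those of the spindle checkpoint, the kinetochore and the anaphase-promoting complex/cyclosome (APC/C), with the mitotic kinases and the securin and separase genes that act beside them. They were chosen by name from a list of 44 gene symbols, and all 44 were found among the 20026 genes of the deposited table. The study asked how loss of miR-23a or miR-27a alters the cell cycle of HepG2 hepatocellular carcinoma cells, in particular passage through G2/M. It sequenced RNA from 3 groups of 2 libraries each: Scr cells, which received the empty Cas9 vector and are labelled WT, miR-23a KO cells (genotype miR-23a-KO) and cells with the genotype miR-27a-KO (miR-27a KO). The knockouts were made with paired guide RNAs in the PX458 plasmid, and single GFP-positive cells were grown into clones. The study speaks of selected colonies for the Scr cells too. The study describes a pair of clones for each knockout, but the labels do not say whether the libraries of a group are clones or cultures of 1 clone, and a difference due to the lost miRNA and a difference between clones cannot be told apart. Nor does either knockout stand for 1 miRNA alone: by the study's qPCR, the miR-23a KO clones also had less miR-27a-3p and miR-24-3p, and the miR-27a KO clones had less miR-24 (3p and 5p) and miR-23a-5p, with slightly more miR-23a-3p. Both miRNAs lie in 1 cluster on chromosome 19, and the edited miRNA genes themselves were not analysed here.

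The spindle checkpoint holds a cell in mitosis until every kinetochore is attached to spindle microtubules: unattached kinetochores recruit MAD and BUB proteins, which form an inhibitor of CDC20, the activator of the APC/C. Once the checkpoint is satisfied, the APC/C marks securin and cyclin B for destruction, separase cuts cohesin and the sister chromatids part. Many of these genes are transcribed mainly in G2 and M phase, and in liver cancer many of them are known as proliferation genes that are expressed more than in normal liver.

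The mature miRNAs are shown because the knockouts were aimed at them, as given in RefSeq (GRCh38.p14), with the seed (bases 2 to 8) in capitals. The seeds differ in 1 base, so that the miRNAs fall in different seed families.

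miR-23a-3p (chr19:13836595-13836615, minus strand): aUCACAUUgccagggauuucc

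miR-27a-3p (chr19:13836447-13836467, minus strand): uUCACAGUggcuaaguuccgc

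Few members hold a match to either seed. With the longest 3' UTR annotated for a gene (GENCODE 29), AATGTGA, the match to the miR-23a-3p seed, was found in 2 of 44 members (4.5%) and in 19.3% of 15909 genes. ACTGTGA, the match to the miR-27a-3p seed, was found in 2 of 44 members (4.5%) and in 16.6% of 15909 genes. The members' 3' UTRs were short, with a median of 585.5 bases against 1210 over all genes. All 5 matches are shown, with the match in capitals and the position counted from the first base after the stop codon, since of the members the study took forward only *MAD2L1* holds one, and *TTK*, *BUB1*, *PLK1* and *CDC27* hold none. A match is a description of the letters and was not tested as a site. Both knockouts lowered miR-27a-3p in the study, so that a match to its seed cannot be assigned to 1 knockout. By the study's qPCR, miR-23a-3p was lower in the miR-23a KO clones and slightly higher in the miR-27a KO clones. Both knockouts also lowered miR-24-3p, and matches to miR-24 were not searched.

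*BUB3*, miR-27a-3p, position 5590: gggctcaaaacACTGTGAcagatgctgtga

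*BUB3*, miR-27a-3p, position 5747: ctaatgcaggcACTGTGAcaatctgggcac

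*ZWINT*, miR-27a-3p, position 84: ttacaggaaagACTGTGAactcctgagttc

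*MAD2L1*, miR-23a-3p, position 4465: ttattttgttcAATGTGActgataaaagtt

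*CDC23*, miR-23a-3p, position 1315: attcaataaaaAATGTGAacaataata

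The libraries within a group were not equally alike, and that bears on every comparison. Between the miR-27a KO libraries the standard deviation of the log2 ratio was 0.434 over 14163 genes, and 0 members were more than 2-fold apart. Between the Scr libraries it was 0.638, with 3 members more than 2-fold apart. Between the miR-23a KO libraries it was 1.28, with 18 members and 46.8% of all genes more than 2-fold apart. The difference between the miR-23a KO libraries followed base composition and transcript length: over the 44 members, which share these libraries, the Spearman correlation of the log2 ratio (replicate 2 over replicate 1) with GC content was -0.674 between the miR-23a KO libraries, -0.674 between the Scr libraries and -0.216 between the miR-27a KO libraries, and over all genes it was -0.672, -0.458 and -0.0955. With transcript length it was 0.542, 0.407 and -0.0359 over the members and 0.44, 0.183 and -0.0221 over all genes, in the same order.

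The 10 listed liver markers were all in the table, and together they had 466147 and 578771 counts in Scr, against 480573 and 638549 for miR-23a KO and 406542 and 403849 for miR-27a KO. The most abundant over all libraries, *SERPINA1*, had 154517 and 163185 counts in Scr, against 154840 and 86130 for miR-23a KO and 210683 and 207113 for miR-27a KO. *ALB* had 149877 and 223691 counts in Scr, against 103839 and 271337 for miR-23a KO and 34460 and 35719 for miR-27a KO. *AFP* had 37239 and 57930, against 50060 and 121061 for miR-23a KO and 3046 and 3184 for miR-27a KO, and *TTR* 911 and 2826, 2635 and 320, and 796 and 824 in the same order, so that single markers differed widely between libraries.

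**Figure D1:**
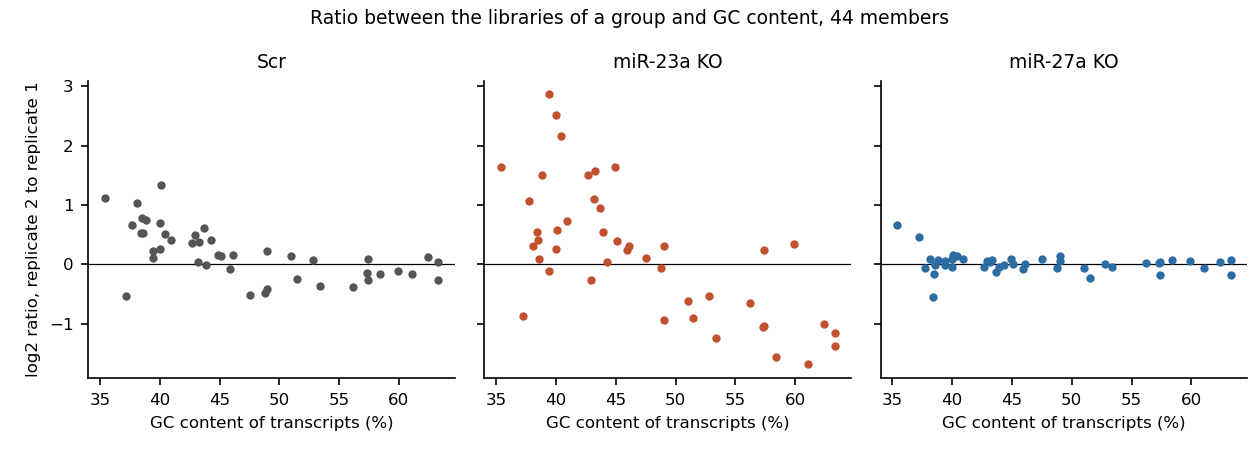
Log2 ratio of replicate 2 to replicate 1 in each group, plotted against the GC content of each member. The Spearman correlation over the 44 members was -0.674 in Scr, -0.674 for miR-23a KO and -0.216 for miR-27a KO.

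Across the members as a whole, miR-23a KO cells tended to have more of these mRNAs than Scr cells, without a single member that passed the test. The members' log2 fold change was positive for 40 of 44 (90.9%, against 63.0% of all 13786 genes tested), with a median of 0.50 against 0.16 over all genes, and of 0.24 (-0.079 over all genes) without miR-23a KO replicate 2. Values were positive for 32 members with miR-23a KO replicate 1 left out (72.7%, against 47.8% of all genes) and for 30 with replicate 2 left out (68.2%, against 46.2%). edgeR called 0 members higher and 0 lower, where the whole table had 0 percent called higher and 0 percent called lower, and the adjusted p was 1 for every member by its quasi-likelihood fit with Benjamini-Hochberg adjustment (0.256 to 1 for *TTK* over the alternatives). At an unadjusted p under 0.05 there were 3 members higher and 0 lower (6.82% and 0%, against 0.856% and 1.55% of all genes). DESeq2 called 0 members, and 64 of all genes. With the spread between these libraries, a count of 0 does not show that the genes are equal. In 11 members (25.0%), against 8.88% of all genes, each miR-23a KO library was higher than each Scr library, and in 3 (6.82%), against 14.9%, lower. Leaving out a miR-23a KO library changes the calls: without replicate 1, 3 members were called higher (*BUB1*, *BUB1B* and *KNTC1*), and without replicate 2, 9 were called higher and *ANAPC1* lower, with 0 genes shared between these lists. As shares, that is 6.82% of the members against 4.12% of all genes without replicate 1, and 22.7% against 18.6% without replicate 2. Without miR-23a KO replicate 1, 25 members were above Scr and 10 below (39.3% and 45.9% of all genes), and without replicate 2, 25 above and 9 below (38.7% and 43.2%). Without Scr replicate 1 it was 18 and 5 (15.6% and 20.4%), and without Scr replicate 2, 21 and 3 (18.9% and 25.4%). In bulk RNA, more cells in G2/M and more RNA of these genes per cell cannot be told apart.

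In miR-27a KO cells the same genes went to both sides of Scr by small amounts. The log2 fold change was positive for 29 of 44 members (65.9%, against 50.9% of 13820 genes), with a median of 0.20 against 0.01 over all genes (0.092 without Scr replicate 1 and 0.30 without Scr replicate 2, with all genes at 0.012 and 0.019), and the members ranged from -0.49 to 0.83. Without Scr replicate 1, 24 members were positive (54.5%, against 51.1% of all genes), and without Scr replicate 2, 29 (65.9%, against 51.1%). Without miR-27a KO replicate 1 it was 31 (70.5%, against 50.5%), and without replicate 2, 28 (63.6%, against 50.1%). edgeR called 1 member higher, *KNTC1*, and 0 lower, while 3.52% of all genes were called higher and 6.74% lower. *CDC23* passed on the adjusted p but not on the fold change. DESeq2 called 0 members, and 1573 of all genes. At an unadjusted p under 0.05 by edgeR there were 11 members higher and 3 lower (25.0% and 6.82%, against 13.8% and 18.4% of all genes). Since the miR-27a KO libraries were nearly alike, both often lay on 1 side of Scr: above it in 18 members (40.9%), against 32.4% of all genes, and below it in 9 (20.5%), against 31.9%. Leaving out Scr replicate 2 gave 11 members called higher and 1 lower (27.3% of the members, against 26.0% of all genes), and leaving out Scr replicate 1 gave 2 higher and 1 lower (6.82%, against 16.0%). With 1 miR-27a KO library left out, whichever it was, 0 members were called higher (2.96% of all genes called without replicate 1 and 2.34% without replicate 2). Without Scr replicate 2, 28 members were above Scr and 15 below (46.3% and 44.4% of all genes), and without Scr replicate 1, 23 above and 17 below (43.9% and 43.7%).

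Set directly against each other, most of these mRNAs were more abundant in miR-23a KO than in miR-27a KO cells, but no difference passed the test. The median log2 fold change was 0.80 for the 4 APC/C activators and their partners, 0.59 for the 10 kinetochore genes and 0.16 for the 12 APC/C subunits. These depended on the miR-23a KO library used: with replicate 1 left out they were 0.12, 0.92 and -0.018, and with replicate 2 left out 0.91, 0.25 and -0.50. For the 9 checkpoint genes the median was 0.42, and 0.31 when replicate 1 was left out. When replicate 2 was left out it was -0.31, with 4 of 9 positive. For the 7 kinase, passenger complex and shugoshin genes it was 0.47, and 0.14 and 0.39 in the same fits. The log2 fold change of miR-23a KO over miR-27a KO was positive for 36 of 44 members (81.8%, against 57.6% of 13841 genes), with a median of 0.39 against 0.11 over all genes, and of 0.26 (-0.083 over all genes) without miR-23a KO replicate 2. edgeR called 0 higher and 0 lower (0 percent and 0 percent of all genes). DESeq2 called 0 members, and 474 of all genes. At an unadjusted p under 0.05 by edgeR there were 4 members higher and 0 lower (9.09% and 0%, against 4.66% and 4.06% of all genes). The smallest adjusted p was 0.293, for *TTK*, by the edgeR quasi-likelihood fit with Benjamini-Hochberg adjustment (0.0287 to 0.53 over the alternatives). In 16 members (36.4%), against 18.7% of all genes, each miR-23a KO library was higher than each miR-27a KO library, and in 5 (11.4%), against 20.7%, lower. Calls again rested on the miR-23a KO libraries: without replicate 1, 13 members were called higher and 4 lower, and without replicate 2, 17 higher and 9 lower, of which 6 were shared in direction (*ANAPC5*, *CDC26*, *FBXO5*, *NDC80*, *NUF2* and *TTK*). In the same fits 4 members were called in opposite directions (*KNTC1*, *CENPF*, *ANAPC4* and *ANAPC11*). As shares, 38.6% of the members against 34.2% of all genes were called without replicate 1, and 59.1% against 51.4% without replicate 2. Without miR-23a KO replicate 1, 29 members were above and 13 below (46.0% and 45.0% of all genes), and with replicate 2 left out instead 25 and 17 (44.7% and 49.3%).

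The medians of the roles stood at different distances from Scr, and differences between roles were not tested. The median log2 difference of the kinetochore genes from the Scr mean was 0.445 in miR-23a KO replicate 1 and 1.23 in replicate 2, while all genes stood at -0.0553 and -0.0726. For the checkpoint genes it was 0.16 and 1.12 for miR-23a KO and 0.4 and 0.487 for miR-27a KO. For the APC/C activators and their partners it was 1.08 and -0.105 for miR-23a KO and -0.151 and -0.212 for miR-27a KO, so that the miR-23a KO libraries stood on opposite sides of Scr. The APC/C subunits stood at -0.175 and -0.0003 for miR-23a KO and at 0.291 and 0.293 for miR-27a KO. The kinetochore genes stood at 0.289 and 0.214 for miR-27a KO. The kinase, passenger complex and shugoshin genes stood at 0.555 and 0.0428 for miR-23a KO and at -0.0634 and -0.0498 for miR-27a KO. The order of the miR-23a KO libraries thus turned with the role, as did the base composition of the genes. Among the 22 members with GC content below the members' median, the median log2 difference was 0.189 in miR-23a KO replicate 1 and 1.29 in replicate 2. Among the 22 members above it, the values were 0.585 and -0.0485. In miR-27a KO the low-GC members stood at 0.36 and 0.362 and the high-GC members at -0.0338 and 0.0237, and the part of base composition in the calls was tested only by the corrected fit. In that fit, with GC content and length trends removed in each library, the members' median log2 fold change was 0.37 for miR-23a KO over Scr, 0.14 for miR-27a KO over Scr and 0.23 for miR-23a KO over miR-27a KO. Over all genes the medians were 0.079, 0.050 and 0.047. No member was called higher in these comparisons, while 8, 1476 and 312 of all genes were called in either direction.

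**Figure D2:**
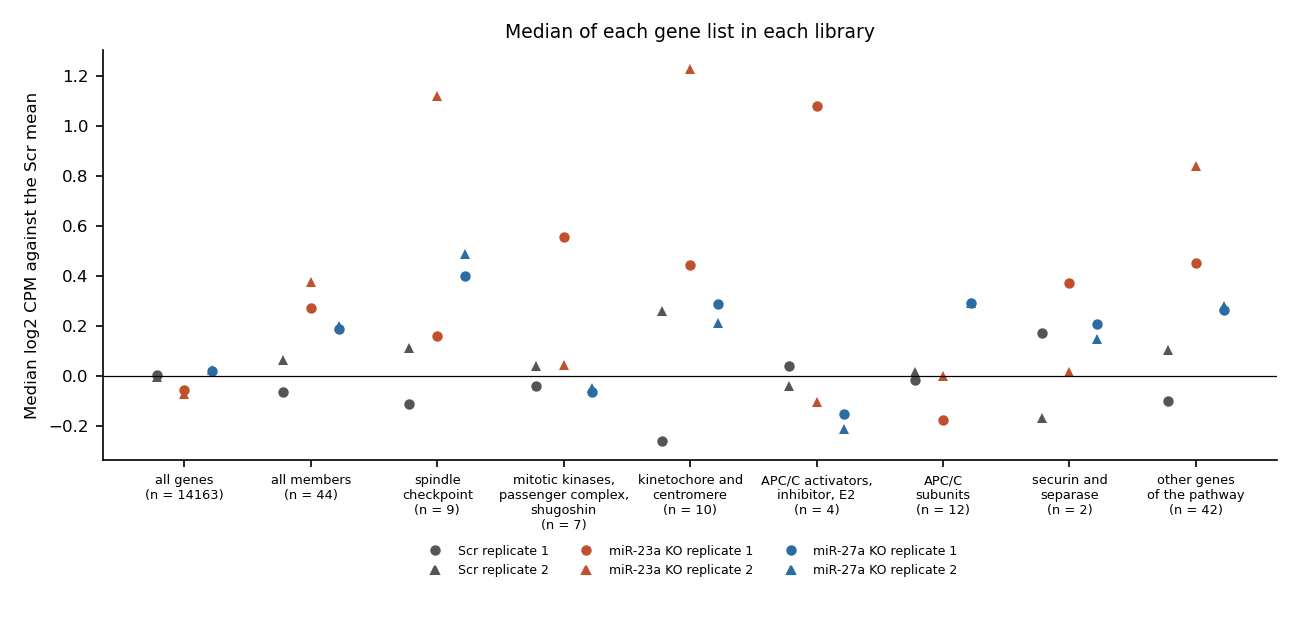
Median log2 CPM against the Scr mean for each role, all members and all genes in every library. Kinetochore genes reached 1.23 in miR-23a KO replicate 2, and APC/C subunits reached 0.293 in miR-27a KO.

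Per kb of transcript, the most abundant member was *PLK1*, at a mean of 130 CPM per kb in Scr, 197 for miR-23a KO and 121 for miR-27a KO. The least abundant was *CENPE*, at 0.232, 0.369 and 0.173 CPM per kb. The role of mitotic kinases, chromosomal passenger complex and shugoshin was the most abundant, with a median of 68.0 CPM per kb in Scr. The kinetochore genes were the least abundant role, at 2.24. Over all 44 members the median was 14.2 CPM per kb in Scr, 18.3 for miR-23a KO and 16.1 for miR-27a KO.

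**Figure D3:**
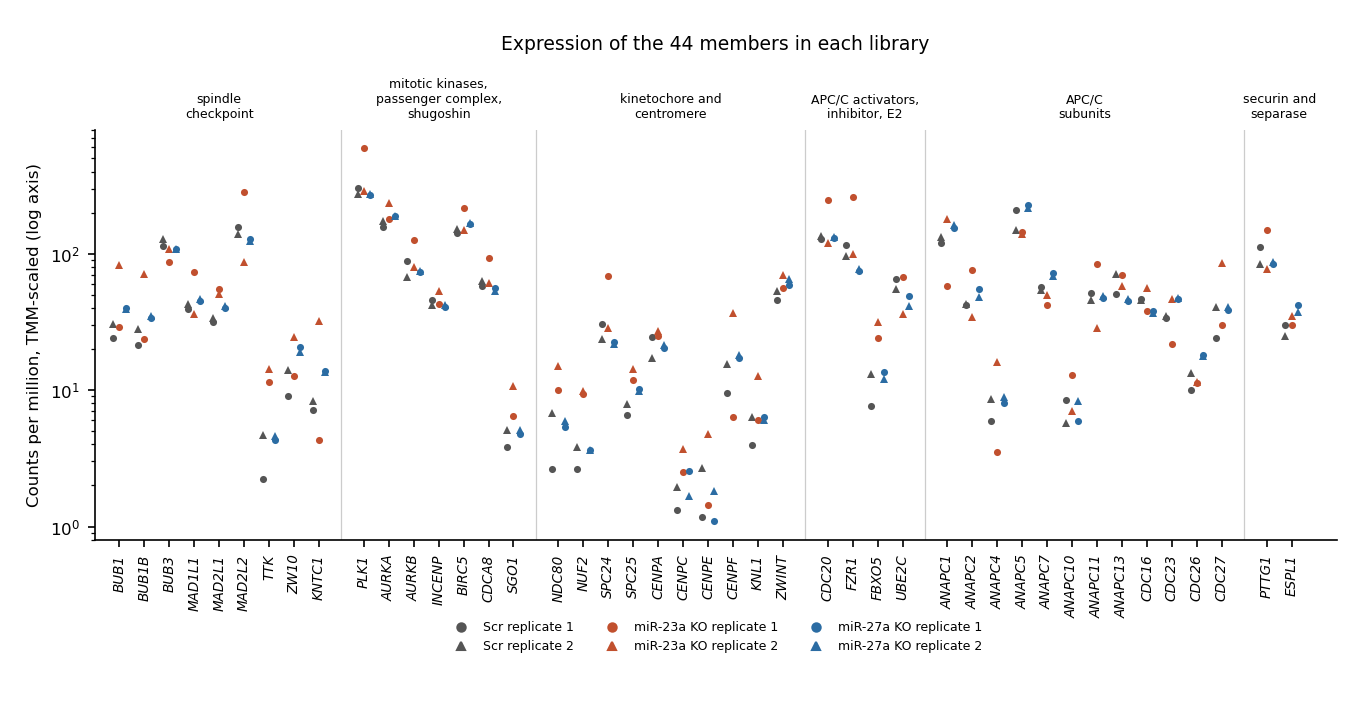
CPM of every member in every library, grouped by role. *PLK1* had 305 and 275 CPM in Scr and 592 and 287 in miR-23a KO, and *TTK* had 2.23 and 4.66 in Scr and 11.5 and 14.3 in miR-23a KO.

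Of the 9 checkpoint genes, *TTK* had the largest log2 fold change in miR-23a KO over Scr. *TTK*, the kinase MPS1 that starts checkpoint signalling at unattached kinetochores, had 2.23 and 4.66 CPM in Scr, against 11.5 and 14.3 for miR-23a KO and 4.30 and 4.58 for miR-27a KO (32 and 69, 151 and 266, and 71 and 76 counts). Both miR-23a KO libraries were above all the others, while miR-27a KO lay within the range of Scr. Over Scr, the log2 fold change was 1.98 with a standard error of 0.65 for miR-23a KO (unadjusted p = 0.0154) and 0.36 with a standard error of 0.41 for miR-27a KO (0.17 to 0.43 over the alternatives). It was called in miR-23a KO without replicate 2 (log2 fold change 1.73) and in miR-27a KO without Scr replicate 2 (0.99). In miR-27a KO it also stood at -0.068 as the lowest with 1 library left out. Against miR-27a KO it stood at a log2 fold change of 1.54, called when miR-23a KO replicate 1 (1.68) or replicate 2 (1.38) was left out. *MAD2L1*, which encodes MAD2, the protein that is converted at kinetochores into the form that binds CDC20, had 31.3 and 33.5 CPM in Scr, against 54.8 and 50.8 for miR-23a KO and 39.9 and 41.6 for miR-27a KO. The groups did not overlap: Scr was lowest, miR-27a KO in between and miR-23a KO highest. Its log2 fold change was 0.77 (standard error 0.44) in miR-23a KO and 0.33 (standard error 0.11) in miR-27a KO, with 0.40 and 0.10 as the lowest values over the alternatives, and *MAD2L1* is also the checkpoint gene with a match to the miR-23a-3p seed.

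*BUB1*, the kinase that brings shugoshin and other checkpoint proteins to the centromere, had 24.0 and 30.7 CPM in Scr, against 29.2 and 83.1 for miR-23a KO and 40.1 and 39.0 for miR-27a KO. The high value of miR-23a KO came from replicate 2 alone, with replicate 1 inside the Scr range, whereas both miR-27a KO libraries were above Scr. Its log2 fold change over Scr was 1.14 (standard error 0.61) in miR-23a KO and 0.53 (standard error 0.15) in miR-27a KO, called without miR-23a KO replicate 1 (1.65) and without Scr replicate 2 (0.72). *KNTC1*, which encodes the ROD subunit of the RZZ complex that carries MAD1 and MAD2 to kinetochores, had 7.10 and 8.31 CPM in Scr, against 4.34 and 32.2 for miR-23a KO and 13.8 and 13.6 for miR-27a KO. Both miR-27a KO libraries were above Scr, and the miR-23a KO libraries lay on either side of all the others. *KNTC1* rose 1.77-fold in miR-27a KO (log2 fold change 0.83, standard error 0.19, adjusted p = 0.0462 by the edgeR quasi-likelihood fit with Benjamini-Hochberg adjustment, 0.0461 to 0.991 over the alternatives). Of the other fits with every library, median-ratio scaling kept the call and the rest lost it. The log2 fold change was 0.61 to 0.85 over the alternatives and 0.72 to 0.95 with 1 library left out. With 1 library left out, the call was kept without Scr replicate 1 (adjusted p = 0.00891) or replicate 2 (0.00246) and lost without miR-27a KO replicate 1 (0.388) or replicate 2 (0.379). In miR-23a KO its log2 fold change was 1.36 (standard error 0.88, and 0.33 to 1.35 over the alternatives), called without replicate 1 (2.10) and of the other sign without replicate 2 (-0.83).

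*BUB3*, which carries BUB1 and BUBR1 to the kinetochore protein KNL1, went the other way. It had 115 and 128 CPM in Scr, against 87.5 and 108 for miR-23a KO and 109 and 109 for miR-27a KO. Both knockouts lay below Scr, with log2 fold changes of -0.24 (standard error 0.43) in miR-23a KO and -0.16 (standard error 0.09) in miR-27a KO. *BUB3* is the member with a pair of matches to the miR-27a-3p seed. *MAD2L2*, a relative of MAD2 that acts in DNA repair and can inhibit FZR1, had 156 and 139 CPM in Scr, against 281 and 87.0 for miR-23a KO and 129 and 124 for miR-27a KO. The miR-23a KO libraries lay on either side of all the others, and both miR-27a KO libraries were below Scr (log2 fold change -0.23, standard error 0.09, but 0.057 when GC content and length were corrected). In miR-23a KO the log2 fold change of *MAD2L2* was 0.35 (standard error 0.57), called without replicate 2 (0.93) and of the other sign without replicate 1 (-0.71).

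Among the kinases, *PLK1*, which drives centrosome maturation, kinetochore attachment and the priming of APC/C inhibitors for destruction, had 305 and 275 CPM in Scr, against 592 and 287 for miR-23a KO and 267 and 272 for miR-27a KO. Replicate 1 of miR-23a KO was high while replicate 2 lay in the Scr range, the opposite of *BUB1*, and both miR-27a KO libraries lay just below Scr. For *PLK1* that made a log2 fold change of 0.64 (standard error 0.49) in miR-23a KO, called without replicate 2 (1.03), and -0.11 (standard error 0.09) in miR-27a KO, where it was 0.14 in the corrected fit for GC content and length. *AURKA*, the spindle pole kinase that activates PLK1, had 158 and 173 CPM in Scr, against 179 and 234 for miR-23a KO and 189 and 189 for miR-27a KO. Every knockout library was above Scr, with log2 fold changes of 0.40 (standard error 0.45) in miR-23a KO and 0.19 (standard error 0.08) in miR-27a KO. Of the chromosomal passenger genes, *INCENP*, the scaffold of Aurora B, had 45.6 and 42.0 CPM in Scr, against 42.4 and 53.4 for miR-23a KO and 40.7 and 42.2 for miR-27a KO, so that each knockout overlapped with Scr, and miR-23a KO lay above miR-27a KO by a narrow margin. *CDCA8*, which encodes borealin, had 58.0 and 63.4 CPM in Scr, against 93.1 and 60.8 for miR-23a KO and 56.2 and 53.6 for miR-27a KO, with miR-23a KO replicate 1 far above Scr, replicate 2 inside its range and miR-27a KO below it. *SGO1*, which protects centromeric cohesin, had 3.83 and 5.14 CPM in Scr, against 6.47 and 10.8 for miR-23a KO and 4.79 and 5.12 for miR-27a KO. Both miR-23a KO libraries were above the others (log2 fold change over Scr 1.03, standard error 0.63).

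Among the kinetochore genes, both miR-23a KO libraries were above Scr in 6 of 10, against 8.88% of all genes, and 8 of 10 (80%) were more than 1.5-fold higher, against 20.1% of all genes, though none passed the test. That count was 7 without miR-23a KO replicate 1 (27.1% of all genes) and 5 without replicate 2 (21.8%), and in replicate 1 *CENPF* and *CENPE* lay below the Scr mean. *NUF2* and *NDC80* encode partners in the complex that holds the microtubule end. *NUF2* had 2.64 and 3.85 CPM in Scr, against 9.36 and 9.91 for miR-23a KO and 3.64 and 3.62 for miR-27a KO (38 and 57, 123 and 184, and 60 and 60 counts). The miR-23a KO libraries agreed closely and stood clear of the rest. The log2 fold change of *NUF2* was 1.63 (standard error 0.62, unadjusted p = 0.0289) over Scr and 1.41 (standard error 0.39, unadjusted p = 0.0158) over miR-27a KO, the latter called when miR-23a KO replicate 1 (1.44) or replicate 2 (1.37) was left out. For *NDC80* likewise, each miR-23a KO library was higher than each Scr library.

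Other genes of the outer kinetochore and centromere were less even. *CENPF*, a large protein of the outer kinetochore that builds up in G2, had 9.53 and 15.5 CPM in Scr, against 6.32 and 37.0 for miR-23a KO and 17.2 and 18.2 for miR-27a KO. The miR-23a KO libraries were the lowest and the highest of all, and both miR-27a KO libraries were above Scr. The log2 fold change in miR-27a KO was 0.49 (standard error 0.26), called without Scr replicate 2 at 0.89. It was 0.19 as the lowest with 1 library left out. The value for miR-23a KO was 0.90 in log2 (standard error 0.82), 0.098 as the lowest over the alternatives and -0.99 without replicate 2. *CENPA*, the histone H3 variant that marks the centromere, had 24.6 and 17.2 CPM in Scr, against 25.1 and 27.0 for miR-23a KO and 20.2 and 21.6 for miR-27a KO. Both miR-23a KO libraries were above Scr by a narrow margin (log2 fold change 0.39, standard error 0.49), and miR-27a KO lay inside the Scr range. *CENPE*, the kinesin that moves chromosomes to the spindle equator, had 17 and 40 counts in Scr, against 19 and 88 for miR-23a KO and 18 and 30 for miR-27a KO, and the groups overlapped.

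**Figure D4:**
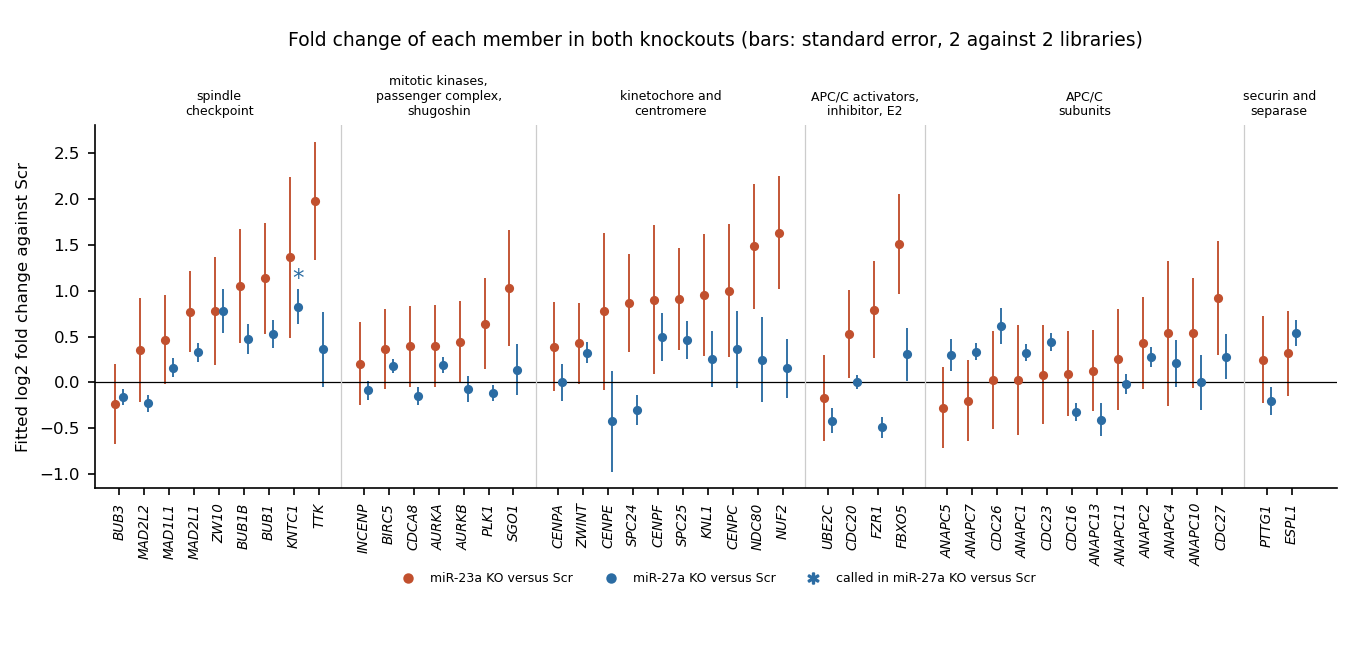
Log2 fold change of every member with its standard error in each knockout over Scr, grouped by role. The largest values were 1.98 for *TTK* in miR-23a KO and 0.83 for *KNTC1* in miR-27a KO.

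The APC/C activators and inhibitors included the member nearest a call in the lower direction. *FZR1*, which encodes CDH1, the activator that keeps the APC/C working from late mitosis through G1, had 116 and 96.7 CPM in Scr, against 260 and 100 for miR-23a KO and 74.2 and 77.7 for miR-27a KO. Both miR-27a KO libraries were below Scr, while miR-23a KO replicate 1 was far above it and replicate 2 inside it. Its difference from Scr in miR-27a KO was -0.49 in log2 (standard error 0.12, adjusted p = 0.0501 by the edgeR quasi-likelihood fit with Benjamini-Hochberg adjustment, 0.0261 to 0.991 over the alternatives), short of a 1.5-fold difference, and the log2 value was -0.49 to -0.18 over the alternatives. Without Scr replicate 2 it was -0.61 and was called. In miR-23a KO it was 0.79 (standard error 0.53), called without replicate 2 (1.29). *FBXO5*, which encodes EMI1, the inhibitor of the APC/C in S and G2 phase, had 7.58 and 13.1 CPM in Scr, against 24.0 and 31.8 for miR-23a KO and 13.5 and 12.1 for miR-27a KO. Both miR-23a KO libraries were above the rest (log2 fold change over Scr 1.51, standard error 0.55, unadjusted p = 0.0244 by the edgeR quasi-likelihood fit). In miR-27a KO, 1 library lay within the Scr range. The log2 fold change there was 0.31, called without Scr replicate 2 at 0.75. It was -0.027 as the lowest with 1 library left out. *UBE2C*, the ubiquitin-conjugating enzyme that starts chains on APC/C substrates, had 65.0 and 54.9 CPM in Scr, against 67.4 and 35.9 for miR-23a KO and 48.6 and 41.4 for miR-27a KO. The miR-27a KO libraries were below Scr (log2 fold change -0.42, standard error 0.14), and those of miR-23a KO lay on either side of all the others.

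The APC/C subunits had a median log2 fold change of 0.11 in miR-23a KO over 12 genes (0.024 with replicate 1 left out and -0.20 with replicate 2 left out), with both libraries above Scr in 0 and below it in 2 (8.88% and 14.9% of all genes). Single subunits lay far to both sides within the miR-23a KO pair: *ANAPC4* stood at -1.01 and 1.15 in log2 against the Scr mean, and *ANAPC11* at 0.797 and -0.759. In miR-27a KO the median was 0.28, with both libraries above Scr in 6 and below it in 2 (32.4% and 31.9% of all genes). *CDC23* (APC8), a subunit of the scaffold of repeat proteins that binds the activators, was among those above Scr, by less than 1.5-fold. The gene holds a match to the miR-23a-3p seed. In miR-23a KO its libraries lay on either side of Scr, at -0.658 and 0.438 in log2 against the Scr mean. *CDC27* (APC3), the subunit that binds the activators' tail, had 24.3 and 40.6 CPM in Scr, against 29.9 and 84.7 for miR-23a KO and 38.5 and 40.5 for miR-27a KO. All groups overlapped, and only miR-23a KO replicate 2 was high (log2 fold change 0.92, standard error 0.62 in miR-23a KO and 0.31 as the lowest over the alternatives, and 0.28, standard error 0.25 in miR-27a KO, called without Scr replicate 2 at 0.70). *CDC26*, a small protein that stabilizes CDC16, had 10.0 and 13.3 CPM in Scr, against 11.2 and 11.5 for miR-23a KO and 17.9 and 17.8 for miR-27a KO. It was above Scr in miR-27a KO (log2 fold change 0.61, standard error 0.19, called without Scr replicate 2 at 0.84) and level with it in miR-23a KO (0.02).

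*ANAPC5*, a subunit of the platform that joins the scaffold to the catalytic core, parted the knockouts. It had 210 and 149 CPM in Scr, against 144 and 139 for miR-23a KO and 226 and 216 for miR-27a KO. Scr replicate 1 was close to miR-27a KO and replicate 2 close to miR-23a KO, so that the knockouts lay to the sides of an uneven pair. The log2 fold change of miR-23a KO over miR-27a KO was -0.64 (standard error 0.32), which did not pass the test. It was -0.68 with miR-23a KO replicate 1 left out and -0.61 with replicate 2 left out. *ANAPC13*, a small subunit that steadies the scaffold, had 50.2 and 70.8 CPM in Scr. It had 69.4 and 57.7 for miR-23a KO and 45.0 and 46.7 for miR-27a KO, with miR-27a KO below Scr. The log2 fold change in miR-27a KO was -0.40, called without Scr replicate 1 at -0.63. It was -0.13 at the nearest to Scr with 1 library left out.

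Downstream of the APC/C, *PTTG1* encodes securin, the inhibitor and chaperone of separase, and *ESPL1* encodes separase. *PTTG1* had 113 and 84.0 CPM in Scr, against 149 and 77.2 for miR-23a KO and 84.1 and 86.9 for miR-27a KO, and the groups overlapped. *ESPL1* had 29.8 and 24.9 CPM in Scr, against 29.8 and 35.1 for miR-23a KO and 42.2 and 37.4 for miR-27a KO. Both miR-27a KO libraries were above all the others, with a log2 fold change over Scr of 0.54 (standard error 0.14), and without Scr replicate 1 the gene was called (0.68). Of these members, *CDC27*, *TTK*, *MAD2L1*, *PLK1* and *BUB1* were taken forward by the study with the help of these libraries, so that their direction here is not independent evidence. For TTK the study's Western blots had less protein in both knockouts, while the values here are of RNA, and protein was not measured in these libraries.

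Among 42 other genes of the pathway that are not members, such as further kinetochore proteins, cyclins and CDK1, 40 had a positive log2 fold change in miR-23a KO over Scr (95.2%, against 63.0% of all genes) and 34 in miR-27a KO over Scr (81.0%, against 50.9%). edgeR called 0 in miR-23a KO, with 6 higher at an unadjusted p under 0.05 (14.3%, against 0.856% of all genes). DESeq2 called 0 of them there, and 64 of all genes. In miR-27a KO edgeR called 3 higher and 2 lower, where 3.52% and 6.74% of all genes were called. *DSN1* and *NSL1* encode subunits of the MIS12 complex, which joins the centromere to the NDC80 complex. *MIS12* and *PMF1*, of the same complex, had log2 fold changes of 0.091 and 0.10 in miR-27a KO over Scr and were not called. *DSN1* had 204 and 262 counts in Scr, against 234 and 613 for miR-23a KO and 513 and 569 for miR-27a KO. It rose in miR-27a KO by 1.03 in log2 (standard error 0.16, adjusted p = 0.0214 by the edgeR quasi-likelihood fit with Benjamini-Hochberg adjustment, 0.0003 to 0.563 over the alternatives). *NSL1*, with 240 and 269, 345 and 516, and 514 and 509 counts in the same order, rose by 0.82 (standard error 0.13). *MIS18A*, which prepares the centromere for new CENPA, had 129 and 144, 158 and 291, and 307 and 279 counts and rose by 0.92 (standard error 0.17). All 3 were thus near 2-fold Scr in both miR-27a KO libraries, and each call was kept by 6 of 7 other fits and lost in the fit of all 6 libraries and with 1 miR-27a KO library left out.

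Of the pathway genes that were lower, *SKA1*, which helps kinetochores follow shrinking microtubule ends, had 21.4 and 25.7 CPM in Scr, against 31.7 and 46.9 for miR-23a KO and 12.6 and 14.3 for miR-27a KO. The knockouts lay on opposite sides of Scr with no overlap. *SKA1* fell in miR-27a KO, with a log2 value of -0.81 (standard error 0.17, adjusted p = 0.0383 by the edgeR quasi-likelihood fit with Benjamini-Hochberg adjustment, 0.00474 to 0.655 over the alternatives). *CENPT*, which links centromeric chromatin to NDC80, had 2871 and 2468 counts in Scr, against 4200 and 2650 for miR-23a KO and 1961 and 1835 for miR-27a KO, and fell in miR-27a KO, with a log2 value of -0.68 (standard error 0.11). Other fits kept the call of *SKA1* in 5 of 7 and that of *CENPT* in 4 of 7. The call of *CENPT* was lost in both fits with GC content and length corrected, and with all 6 libraries in the fit. The log2 value of *CENPT* was -0.68 to -0.39 over the alternatives. The call of *SKA1* was lost with 1 miR-27a KO library left out and that of *CENPT* also without Scr replicate 1. *CCNB1* (cyclin B1), an APC/C substrate, had 130 and 141 CPM in Scr, against 158 and 167 for miR-23a KO and 159 and 165 for miR-27a KO, with every knockout library above Scr. That is RNA, whereas the study's Western blots had less cyclin B protein in both knockouts. *CDK1*, its kinase, had 17.9 and 23.1 CPM in Scr, against 43.3 and 47.1 for miR-23a KO and 23.6 and 24.7 for miR-27a KO. Scr was lowest, miR-27a KO just above it and miR-23a KO highest (log2 fold change over Scr 1.21, standard error 0.47, unadjusted p = 0.0323, and 0.49 to 1.22 over the alternatives). The marker genes of cycling cells summed to 581 and 759 CPM before scaling in Scr. The sums were 566 and 1094 for miR-23a KO and 872 and 890 for miR-27a KO. Single markers were less even. *MKI67* had 717 and 1346 counts in Scr, 566 and 3383 for miR-23a KO and 1792 and 1800 for miR-27a KO. *TOP2A* had 472 and 742, 401 and 2998, and 1067 and 1075 counts in the same order. *MCM2* had 2682 and 2983, 4128 and 3752, and 4099 and 4212. The part of these markers in the results was not tested.

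Many members share promoter letters known from genes of G2 and M phase: the CHR (TTTGAA), an element known to be bound by the DREAM complex and MuvB with B-MYB, and the CCAAT box, bound by NF-Y. In RefSeq promoters (GRCh38.p14, 250 bases before to 50 after the start), searched on both strands, 37 of 44 members were matched. The CHR was found in 18 of 37 (48.6%), against 11.3% of 15000 promoters, CCAAT in 22 (59.5%) against 35.8%, and both in 12 (32.4%) against 4.6%. The CHR was present in 7 of 9 kinetochore genes and in 2 of 12 APC/C subunits. The 18 members with a CHR had a median log2 fold change of 0.71 for miR-23a KO and 0.33 for miR-27a KO, and the 19 without had 0.45 and 0.14. For miR-23a KO over miR-27a KO the order was the other way, with 0.38 and 0.47. The 22 members with CCAAT had medians of 0.48 for miR-23a KO over Scr, 0.21 for miR-27a KO over Scr and 0.38 for miR-23a KO over miR-27a KO, and the 15 without had 0.54, 0.21 and 0.48. Library by library, the members with a CHR stood 0.445 and 0.512 above Scr in miR-23a KO, and those without 0.532 and 0.0428, so that the gap for the CHR in miR-23a KO came from replicate 2. The promoters of *MAD2L1*, *PLK1*, *BUB1* and *NUF2* are shown, since they cover a promoter with both motifs, 1 with a pair of CCAAT boxes and no CHR, and 1 with a CHR alone, with the matches in capitals (ATTGG is CCAAT on the other strand). A match of letters is a description and not a binding site, and these matches were not tested against the values.

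*MAD2L1* (chr4:120066799-120067098, minus strand): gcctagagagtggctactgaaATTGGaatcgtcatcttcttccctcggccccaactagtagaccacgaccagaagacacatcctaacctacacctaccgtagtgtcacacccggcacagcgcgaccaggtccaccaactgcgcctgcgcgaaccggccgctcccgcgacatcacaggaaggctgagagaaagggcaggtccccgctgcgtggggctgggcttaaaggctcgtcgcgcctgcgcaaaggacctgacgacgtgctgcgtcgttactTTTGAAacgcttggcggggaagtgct

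*PLK1* (chr16:23678639-23678938, plus strand): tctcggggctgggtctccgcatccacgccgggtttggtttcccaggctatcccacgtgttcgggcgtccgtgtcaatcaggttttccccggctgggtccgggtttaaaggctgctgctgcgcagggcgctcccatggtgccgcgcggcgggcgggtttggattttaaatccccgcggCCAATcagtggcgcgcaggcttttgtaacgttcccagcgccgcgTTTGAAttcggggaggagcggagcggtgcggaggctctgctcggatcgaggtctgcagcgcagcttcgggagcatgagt

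*BUB1* (chr2:110678014-110678313, minus strand): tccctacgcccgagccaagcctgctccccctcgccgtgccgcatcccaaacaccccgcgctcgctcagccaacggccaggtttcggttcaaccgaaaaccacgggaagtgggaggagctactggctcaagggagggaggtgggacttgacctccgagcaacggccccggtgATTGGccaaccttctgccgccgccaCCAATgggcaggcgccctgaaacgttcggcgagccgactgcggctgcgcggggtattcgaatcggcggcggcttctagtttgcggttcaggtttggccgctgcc

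*NUF2* (chr1:163321704-163322003, plus strand): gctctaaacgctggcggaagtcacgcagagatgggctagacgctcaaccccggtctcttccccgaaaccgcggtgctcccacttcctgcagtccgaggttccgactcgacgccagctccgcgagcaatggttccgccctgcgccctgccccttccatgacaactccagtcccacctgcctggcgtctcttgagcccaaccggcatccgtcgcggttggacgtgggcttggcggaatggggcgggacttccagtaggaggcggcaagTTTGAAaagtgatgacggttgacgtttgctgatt

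In *PLK1* the CHR begins 29 bases before the start and the CCAAT box 73 bases before it. In *MAD2L1* and *NUF2* the CHR begins 25 and 17 bases after the start.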

How the data were processed

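RNA of 6 HepG2 libraries was sequenced, 2 from Scr cells, 2 from miR-23a KO cells and 2 from miR-27a KO cells. The deposited table gives an expected count for each of 20026 genes and each library. Its column names speak of FPKM, but the values were taken to be expected counts: 42.6% to 51.0% of them are whole numbers to within 1e-09, zeros included (34.5% to 40.8% of those above 0), and each library sums to between 14405247 and 16515266, which is also the depth per library. The study describes a stranded mRNA kit with paired reads and the labels name another library kit. The submitters' notes name HISAT, StringTie, Cufflinks and GATK, without saying which made the counts. The cell type label speaks of a triple-negative tumour, which is not what HepG2 is, and the liver markers were therefore looked up in the table.

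Counts were rounded, filtered with filterByExpr, scaled by TMM and fitted with edgeR 4.0.16 (quasi-likelihood, R 4.3.3) for 1 pair of groups at a time, over 13786 genes for miR-23a KO over Scr, 13820 for miR-27a KO over Scr and 13841 for miR-23a KO over miR-27a KO. All 44 members passed the filter in each. P-values were adjusted over all genes tested by the Benjamini-Hochberg method, and a call needs an adjusted p under 0.05 together with more than 1.5-fold difference. CPM follow edgeR, with the TMM-adjusted library size as the base, and are given as a mean over 2 libraries where a group is given 1 value. With 2 libraries a group, precision rests on the spread between libraries: the biological coefficient of variation was 0.446, 0.159 and 0.415 in these comparisons, and p-values measure only the spread between these libraries. Other settings tried were DESeq2 1.42.0, median-ratio scaling, 1 fit of all 6 libraries, no filter, the removal of trends with GC content and length (GENCODE 29 transcripts, known for 17621 genes), a block for the replicate number, the study's stricter limit of 0.001 on the adjusted p, and leaving out each library in turn. The fitting code was tested on simulated data in which 200 genes were set to a 4-fold change. With edgeR, 19 were recovered in miR-23a KO over Scr and 17 in miR-23a KO over miR-27a KO, so that most were missed. In miR-27a KO over Scr 200 were recovered, with 8 false calls. DESeq2 recovered 89, 86 and 200 in the same order. Smaller changes were not simulated.

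The members, the roles, the list of 42 other pathway genes and the rule for naming genes were chosen with earlier results of these data known. By that rule, values in every library are given for 24 members: those called, those the study took forward, and the highest and lowest of each role in either knockout over Scr. The comparisons of each knockout with Scr share the Scr libraries. Genes whose reads match near-identical copies elsewhere in the genome carry an added uncertainty that was not tested.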

Additional observations from a re-analysis of the deposited data

Results flagged for a closer look

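Of the 44 members and 42 other pathway genes, 5 had both libraries of 1 knockout above both Scr libraries and both libraries of the other knockout below them. That is 5.81% of 86 genes, and the same pattern was seen in 786 of 13556 genes tested over the whole table (5.8%). *ANAPC5* had 210 and 149 CPM in Scr, against 144 and 139 for miR-23a KO and 226 and 216 for miR-27a KO, a log2 fold change of miR-23a KO over miR-27a KO of -0.64 (adjusted p = 0.703 by the edgeR quasi-likelihood fit with Benjamini-Hochberg adjustment, 0.385 to 1 over the alternatives). *ANAPC7* had 57.0 and 54.1 CPM in Scr, against 42.2 and 50 for miR-23a KO and 72.4 and 68.2 for miR-27a KO, with a log2 fold change of -0.60 (adjusted p = 0.73 in the same fit). *SKA1* had 21.4 and 25.7 CPM in Scr, against 31.7 and 46.9 for miR-23a KO and 12.6 and 14.3 for miR-27a KO, with a log2 fold change of 1.55 (adjusted p = 0.276 in the same fit, 0.00154 to 0.393 over the alternatives). *ANAPC16* had 59.7 and 54.6 CPM in Scr, against 51.2 and 41.0 for miR-23a KO and 76.9 and 83.0 for miR-27a KO, with a log2 fold change of -0.79 (adjusted p = 0.613 in the same fit). *CDC25C* had 19.1 and 18.3 CPM in Scr, against 18.1 and 18.2 for miR-23a KO, just below Scr, and 24.5 and 23.4 for miR-27a KO, with a log2 fold change of -0.40 (adjusted p = 0.822 in the same fit). None of the 5 differences passed the test between the knockouts in the main fit. That of *SKA1* passed with GC content and length trends removed, with or without the block. With 1 library left out, the log2 fold change was 1.24 to 1.79 for *SKA1* and -0.68 to -0.61 for *ANAPC5*. That of *ANAPC7* was -0.73 without miR-23a KO replicate 2. A gene can be placed this way by libraries that vary, and with 2 libraries a group the flags rest on 6 values each.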

How the results depend on the processing

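Most values kept their direction, while calls depended on which libraries were used: the call of *KNTC1* in miR-27a KO was kept with a Scr library left out and lost with a miR-27a KO library left out. Of the 168 log2 fold changes of named members under other settings in each comparison, the sign turned in 7 for miR-23a KO over Scr, 15 for miR-27a KO over Scr and 8 for miR-23a KO over miR-27a KO. With 1 library left out, it turned in 13, 9 and 8 of 96. A lone library left in a group is assumed to vary like the other group. The causes were not tested. The member with the fewest counts, *CENPE*, had 17 to 88 in a library.

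Members called higher in miR-23a KO over Scr stayed at 0 under every other setting, and were 0 to 9 with 1 library left out (3 without miR-23a KO replicate 1, 9 without replicate 2). Members called lower were 0, and 0 to 1 with 1 left out. In miR-27a KO over Scr the 1 call became 0 with DESeq2, with no filter, with all 6 libraries in the fit, with GC content and length corrected, and at an adjusted p under 0.001, and was 0 to 11 with 1 library left out. Members called lower were 0, and 0 to 1 with 1 left out. In miR-23a KO over miR-27a KO, called higher was 0 to 17 and called lower 0 to 9 with 1 library left out. Of all genes, 1418 were called in either direction in the main fit of miR-27a KO over Scr. That number was 1573 with DESeq2, 892 with no filter and 64 with all 6 libraries in the fit. It was 1476 with GC content and length corrected, and 4 at an adjusted p under 0.001. In miR-23a KO over Scr it ranged from 0 to 69 over the other settings with every library. The members' median was 0.37 in miR-23a KO over Scr and 0.23 in miR-23a KO over miR-27a KO with GC content and length corrected, 0.24 to 0.54 and 0.26 to 0.38 with 1 library left out, and 0.092 to 0.30 for miR-27a KO over Scr with 1 left out.

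The number of members with every remaining library of a group on 1 side, counted again with each library left out, was chosen after seeing the data. In miR-23a KO, 18 to 25 members were above Scr (15.6% to 39.3% of all genes) and 3 to 10 below it (20.4% to 45.9%). In miR-27a KO, 19 to 28 were above (37.8% to 46.3%) and 9 to 17 below (36.9% to 44.4%). For miR-23a KO against miR-27a KO, 17 to 29 were above (22.4% to 46.0%) and 5 to 17 below (24.0% to 49.3%).

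Replicate number as a block was fitted, though the numbers are not said to mark a shared batch. The correlation of deviations between same-numbered libraries was 0.149 for Scr with miR-23a KO. For miR-27a KO it was 0.0103 with Scr and 0.0173 with miR-23a KO. The ratio of replicate 2 to replicate 1 went down with GC content in both Scr and miR-23a KO (Spearman -0.458 and -0.672 over all genes). A shared batch was not tested. With the block, members called higher in miR-27a KO over Scr were 0, while 1693 of all genes were called in either direction. The log2 fold change of *CENPA* there was 0.019, and in miR-23a KO over miR-27a KO *KNTC1* and *CENPF* were -0.18 and -0.18. With block and GC content and length corrected together, 0 members were called higher in miR-27a KO over Scr and 2 in miR-23a KO over miR-27a KO. Of all genes, 1784 and 1091 were called in either direction in these comparisons. The members' median was 0.34 in miR-23a KO over Scr and 0.23 in miR-23a KO over miR-27a KO. In that block fit the signs turned for *CENPE* (-0.000139), *ANAPC13* (-0.045) and *CDC26* (-0.069) in miR-23a KO over Scr, for *MAD2L2* (0.057), *PLK1* (0.14), *INCENP* (0.18), *NUF2* (-0.013) and *CENPA* (0.033) in miR-27a KO over Scr, and for *BUB3* (0.064), *KNTC1* (-0.27) and *CENPF* (-0.23) in miR-23a KO over miR-27a KO.

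With GC content and length corrected, the sign turned for *CENPE* (-0.00157), *ANAPC13* (-0.036) and *CDC26* (-0.078) in miR-23a KO over Scr, for *MAD2L2* (0.057), *PLK1* (0.14), *INCENP* (0.18), *SGO1* (-0.00118), *NUF2* (-0.017) and *CENPA* (0.014) in miR-27a KO over Scr, and for *BUB3* (0.095), *KNTC1* (-0.049) and *CENPF* (-0.12) in miR-23a KO over miR-27a KO. With all 6 libraries in the fit it turned for *CDC26* (-0.042) in miR-23a KO over Scr. *CENPA* in miR-27a KO over Scr, near 0 under these settings, was 0.00423 with DESeq2, 0.019 with no filter and 0.00308 with all 6 libraries.

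With 1 library left out, values of both signs were seen in miR-23a KO over Scr for *MAD2L2* (-0.71 to 0.93), *KNTC1* (-0.83 to 2.10), *INCENP* (-0.047 to 0.33), *CENPE* (-0.43 to 1.49), *CENPF* (-0.99 to 1.60), *FZR1* (-0.043 to 1.29), *UBE2C* (-0.70 to 0.17), *ANAPC13* (-0.13 to 0.40), *CDC26* (-0.20 to 0.25), *CDC27* (-0.12 to 1.43) and *PTTG1* (-0.30 to 0.60). In miR-27a KO over Scr this held for *TTK* (-0.068 to 0.99), *SGO1* (-0.050 to 0.37), *NUF2* (-0.085 to 0.46), *CENPA* (-0.23 to 0.29), *CENPE* (-0.89 to 0.29), *FBXO5* (-0.027 to 0.75), *CDC27* (-0.039 to 0.70) and *PTTG1* (-0.40 to 0.028). In miR-23a KO over miR-27a KO this held for *BUB1* (-0.43 to 1.07), *MAD2L2* (-0.54 to 1.16), *KNTC1* (-1.65 to 1.22), *AURKA* (-0.074 to 0.30), *CENPF* (-1.48 to 1.06), *UBE2C* (-0.33 to 0.59), *CDC27* (-0.40 to 1.09) and *PTTG1* (-0.15 to 0.81).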
